A study of Mus musculus with 7 samples.

Results

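Cytosolic ribosomal protein genes were compared between intestinal epithelial cells of mice after inducible loss of Mob1a and Mob1b and those of control mice without Cre. Members were the genes whose symbol is Rpl or Rps followed by a number, together with Rplp0, Rplp1, Rplp2 and Rpsa. Pseudogene names ending in -ps and the Rps6k kinases were left out. The rule found 88 genes on 176 probes, out of 20887 named genes on 27509 probes, among 55681 probes in all. Of these, 85 genes were tested, namely 31 of the small subunit, 42 of the large subunit, 3 of the P-stalk and 9 paralogues or look-alikes whose symbol carries a further suffix. Each gene was represented by its brightest probe, and all 85 probes were well above background on all 7 arrays.

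The cytosolic ribosome is built of a small subunit, which reads the messenger RNA, and a large subunit, which joins the amino acids. The proteins are made in matched amounts, and the messages of nearly all of them begin with a run of pyrimidines at the cap, the 5′ terminal oligopyrimidine (TOP) tract, through which mTOR and Larp1 control their translation together. Ribosomes are in high demand in the fast-renewing epithelium of the small intestine. Mob1a and Mob1b are adaptors of the Hippo pathway that activate the Lats kinases.

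All mice were male, of a C57BL/6J background after more than 6 generations of backcrossing, carried floxed alleles of both Mob1a and Mob1b, and received tamoxifen at 80 mg/kg per day for 2 days when 8 weeks old. The knockout groups also carried CreERT2 under the Villin promoter, which drives recombination in the epithelium, and were sampled at day 4 (2 arrays), day 7 (2 arrays) and day 10 (1 array). The 2 control arrays came from floxed mice without Cre, called wild type in the labels, which give them as taken 7 days after tamoxifen, while the design text gives 0 days. Cells were detached from the proximal intestine with 2 mM EDTA, and each array was hybridised with Cy3-labelled RNA. The design text names 2 different mice at each of the earlier times.

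Signal stood well above background for 45.2% to 51.3% of an array's probes, no spot was saturated, and the 75th percentile of spot signal ran from 314.9 to 545.5. The controls shared slide row 1 with the day 4 arrays, while row 2 held day 7 and day 10, so row cannot be told apart from day 7 minus control, day 10 minus control or day 7 minus day 4. Mob1b was lower at day 4 by 1.43 on the log2 scale (limma adjusted p = 0.191, not called), at day 7 by 1.59 (0.0136) and at day 10 by 1.64 (0.00702). The Mob1a probe was dim, at -3.87 and -3.71 in the controls and -2.18 at day 10, where it was higher by 1.60 (0.0112). Whether these probes lie in the deleted exons is not known here. All 10 epithelial markers were well above background on all arrays, with a summed level between 10.77 and 11.03. Under that sum single markers moved in both directions. Cdx1 was at 5.83 and 5.81 in the controls and 2.97 at day 10, and Vil1 at 8.28 and 8.15 and then 6.79. Krt18 was at 7.11 and 6.97 in the controls and 8.76 at day 10, and Cdh1 at 4.61 and 4.51 and then 5.85. The summed level of 7 T cell markers was 5.33 to 5.86 on the first 6 arrays and 2.87 at day 10, that of 7 myeloid markers 4.59 to 5.70 and then 6.96 at day 10. Erythroid markers ran from -1.42 on day 7 array 1 to 4.82 on day 4 array 2. The part of these other cells in the results below was not tested, and with bulk RNA a smaller share of a cell type and less RNA per cell cannot be told apart.

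The starts of 6 members are shown because the TOP tract is the element the family shares and because these genes recur in the results. The sequences come from RefSeq on build GRCm38.p6, run 5′ to 3′ on the gene's strand from 30 bases before to 20 bases after the annotated start, and show in capitals the longest unbroken run of C and T that overlaps the interval from 10 bases before to 20 bases after the start. They are Rps24 (chr14:24490648-24490697, plus strand), Rps18 (chr17:33955646-33955695, minus strand), Rps27 (chr3:90213629-90213678, minus strand), Rpl7a (chr2:26910777-26910826, plus strand), Rpl13a (chr7:45128726-45128775, minus strand) and Rps21 (chr2:180257349-180257398, plus strand).
Rps24: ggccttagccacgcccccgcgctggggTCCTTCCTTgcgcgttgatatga
Rps18: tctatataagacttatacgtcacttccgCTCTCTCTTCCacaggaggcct
Rps27: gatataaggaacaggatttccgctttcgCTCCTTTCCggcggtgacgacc
Rpl7a: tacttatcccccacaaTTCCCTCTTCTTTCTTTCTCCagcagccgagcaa
Rpl13a: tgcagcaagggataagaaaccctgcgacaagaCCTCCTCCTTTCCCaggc
Rps21: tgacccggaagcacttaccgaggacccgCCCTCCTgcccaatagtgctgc

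Of the 85 genes, 64 had a start used here. In 33 of these (51.6%) an unbroken run of at least 8 C or T letters overlapped that interval. The whole run was counted, with any part outside the interval, and it need not cover the start. In Rps25, for example, the run of 14 bases begins 22 bases before the start and ends before it. Among all 27025 genes of the same table the share was 19.2%. The median longest run was 8.5 bases in the ribosomal protein genes and 5 bases in all genes. Where a gene had several annotated starts, the one with the longest run was taken in both sets. In Rps24, Rps18, Rps27 and Rpl7a the run spans the annotated start, whereas in Rpl13a it begins 3 bases into the transcript. Rps21, with a run of 7 bases, fell just short of the limit, which says only that no longer run overlapped this interval.

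The probes of the family were bright and stayed so on every array. Their median level, given as log2 signal relative to the 75th percentile of the array, was 7.22 and 7.13 on the control arrays, 7.37 and 6.92 at day 4, 6.83 and 6.85 at day 7, and 6.97 at day 10. The day 7 and day 10 arrays lay below both controls, and the day 4 arrays lay on either side of them. The median member stood between the 97.4 and the 98.4 percentile of all features on every array. Brightness depends on the probe, so it gives no order of transcript abundance between genes.

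The share of summed signal held by the 85 genes needs no scaling between arrays. It was 4.16% and 4.11% in the controls, 4.84% and 3.86% at day 4, 4.15% and 3.85% at day 7, and 4.6% at day 10. The day 4 arrays thus differed from each other more than any group differed from control. Day 7 array 1 lay between the controls, and day 10 lay above both. Summed over all probes without a filter, the share was 5.59% and 5.57% in the controls and 6.54% and 5.22% at day 4. It was then 5.45% and 5.23% at day 7, below both controls, and 6.26% at day 10, above both.

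**Figure D1:**
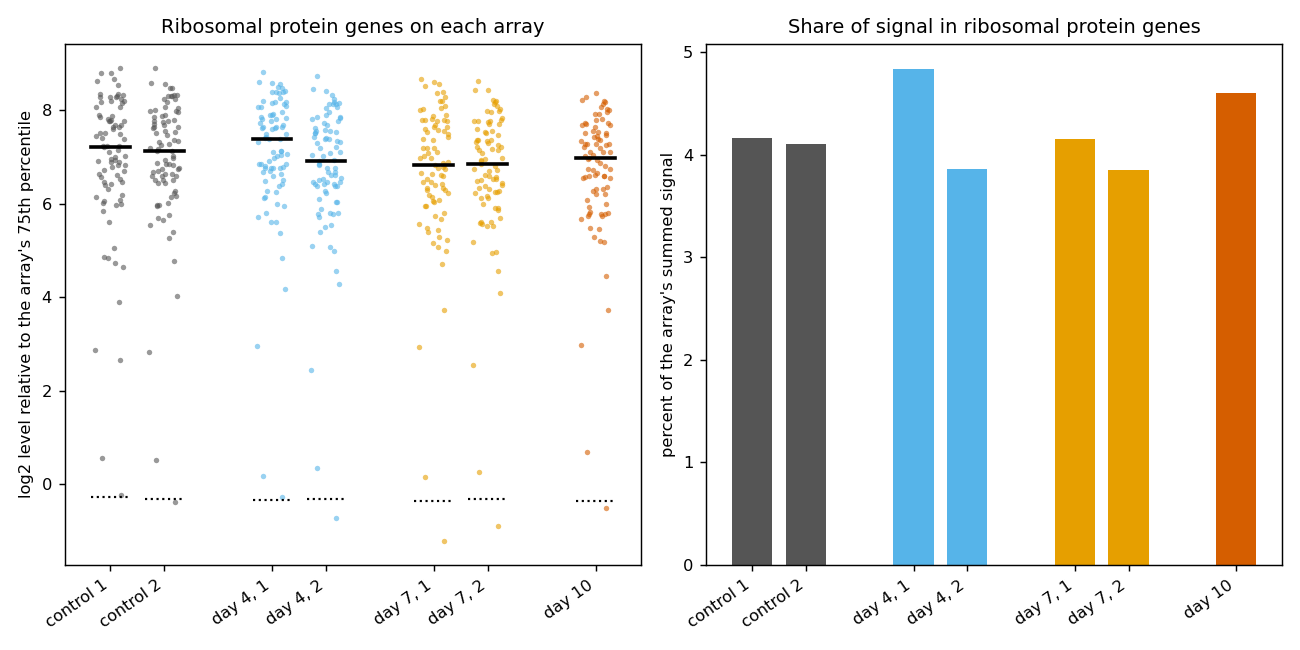
Left, log2 level relative to the array's 75th percentile for the 85 ribosomal protein genes (points) on each of the 7 arrays, with the median of the genes (solid line) and of all tested features (dotted line). Right, percent of the summed signal of all tested features held by the 85 genes on each array, from 3.85% on day 7 array 2 to 4.84% on day 4 array 1.

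At day 4 no ribosomal protein gene passed the test, and none had an unadjusted p under 0.05, against 1543 of the 24763 features. The call threshold was a limma adjusted p under 0.05 over all 24763 features, of which 0.0323% passed (8 higher and 0 lower). The median difference of the 85 genes from control was -0.08 on the log2 scale, as it was over all features with this scaling. After quantile normalization it was 0.07 against -0.02, with 62 of the 85 genes above 0, and it was 0.09 without day 4 array 2 and -0.23 without day 4 array 1. In 5 of the 85 both day 4 arrays lay below both controls, against 26.7% of all features. The 95% interval lay within a log2 change of 1 in either direction for 70 of the 85 genes, against 57.1% of all features.

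At day 7 again no member was called by limma, while 7.46% of all features were (732 higher and 1115 lower). At an unadjusted p under 0.05 there were 3 members (Rps27l, Rplp1 and Rpl7l1), all below control, against 5607 of the 24763 features. The median difference of the members was -0.27, against -0.08 over all features, with the scaling used here, and -0.00 against -0.02 after quantile normalization. With the 75th percentile scaling, 73 of the 85 genes had a difference below 0, and in 50 of them (58.8%) both day 7 arrays lay below both controls, against 32.4% of all features. No member differed by more than 2-fold, while 16.1% of all features did. The 95% interval lay within a log2 change of 1 for 58 of the 85 genes, against 42% of all features.

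At day 10, with a single array, no member was called either, while 28.1% of all features were (2588 higher and 4368 lower). An unadjusted p under 0.05 was found for 1 member (Rps27), against 10048 of the 24763 features. The members' median difference was -0.26, against -0.15 over all features, but it was 0.24 against -0.05 after quantile normalization, and 74 of the 85 genes then had a difference above 0. With the 75th percentile scaling the day 10 array lay below both controls in 65 of the 85 genes (76.5%), against 50.4% of all features. A difference of more than 2-fold was found for no member and for 36.6% of all features. The interval lay within a log2 change of 1 for 37 of the 85 genes, against 16% of all features.

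The later steps gave no called member. From day 4 to day 7, 2.67% of features were called, and the members' median difference was -0.20, against -0.01 over all features. It was -0.04 without day 4 array 1, -0.38 without day 4 array 2 and -0.09 after quantile normalization. From day 7 to day 10, 17.9% were called, with a median of 0.00 in the members and -0.08 over all features, but 0.27 in the members after quantile normalization. None of the 85 had an unadjusted p under 0.05 in either step, against 4306 and 7941 of the 24763 features. The comparisons with control share the same 2 control arrays, and values for them are therefore set side by side only.

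**Figure D2:**
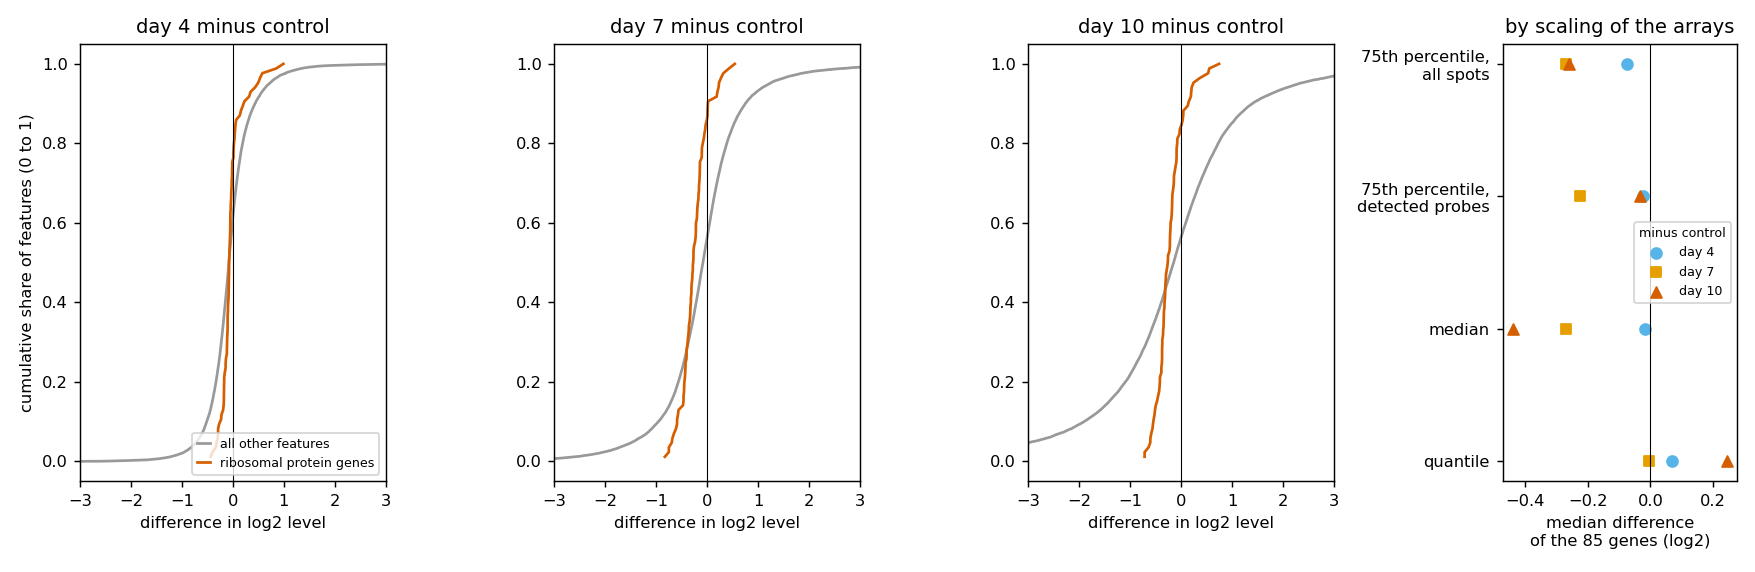
First 3 panels, cumulative share of features against the difference in log2 level from control at day 4, day 7 and day 10, for the 85 ribosomal protein genes and for all other features tested (the axis ends at a log2 change of 3 in either direction). Last panel, the median difference of the 85 genes under 4 scalings of the arrays, which runs from -0.44 to 0.24 at day 10 and from -0.27 to -0.00 at day 7.

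The small subunit had a median difference of -0.06 at day 4, -0.22 at day 7 and -0.23 at day 10 over 31 genes, of which 17 lay wholly below control at day 7, where 32.4% of all features did. Rps3, whose protein sits at the messenger entry channel, had the lowest day 4 difference of the family. Its level was 6.15 and 5.54 in the controls, 5.71 and 5.10 at day 4, 5.57 and 5.18 at day 7, and 5.67 at day 10. Every group overlapped the controls, and the day 4 difference was -0.44 ± 0.33 (SE; adjusted p = 0.919).

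Rps18, a protein of the head of the small subunit, was among the lowest at day 7. Its level was 7.11 and 6.50 in the controls, 6.76 and 6.26 at day 4, 6.05 and 6.17 at day 7, and 6.62 at day 10. Both day 7 arrays lay below both controls, and day 10 lay between the controls. The day 7 difference was -0.70 ± 0.30 (SE; adjusted p = 0.242), while a second, dimmer probe of Rps18 had a difference of 0.05 ± 0.32 (0.938).

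Rps27 was among the lowest at day 10. This zinc finger protein of the small subunit was at 7.86 and 7.63 in the controls, 7.62 and 7.51 at day 4, 7.38 and 7.21 at day 7, and 7.03 at day 10. All 5 knockout arrays lay below both controls. The differences were -0.18 ± 0.22 at day 4, -0.45 ± 0.22 at day 7 and -0.72 ± 0.27 at day 10 (SE), and the day 10 value had the lowest adjusted p of any member in that comparison (0.0946). The other 3 probes of Rps27 had day 10 differences of -0.29, -0.66 and -0.78.

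Rpsa, the small subunit protein also known as the laminin receptor precursor, was at 7.49 and 7.35 in the controls, 7.64 and 7.22 at day 4, 7.56 and 7.15 at day 7, and 7.46 at day 10. The groups overlapped throughout, and the difference was -0.07 ± 0.26 at day 7 and 0.04 ± 0.32 at day 10 (SE; adjusted p = 0.908 and 0.939). Rps6, the substrate of the S6 kinases, had a difference of -0.59 ± 0.27 at day 7 (0.259) and -0.03 ± 0.33 at day 10 (0.961). Rps27a, which is made as a fusion with ubiquitin, had -0.38 ± 0.25 (0.421) and -0.09 ± 0.30 (0.856).

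The large subunit had a median difference of -0.08 at day 4, -0.28 at day 7 and -0.32 at day 10 over 42 genes, of which 26 lay wholly below control at day 7, against the same 32.4% of all features. Rpl31, a protein near the exit of the peptide tunnel, was at 6.61 and 6.15 in the controls, 6.38 and 5.78 at day 4, 5.67 and 5.92 at day 7, and 5.74 at day 10. Its day 7 and day 10 arrays lay below both controls, with differences of -0.59 ± 0.30 (SE; adjusted p = 0.31) and -0.64 ± 0.37 (0.248). Rpl5 and Rpl11, which carry the 5S rRNA into the large subunit and can bind Mdm2 when free, had day 7 differences of 0.01 ± 0.30 (0.986) and -0.26 ± 0.29 (0.646).

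Rplp0, Rplp1 and Rplp2 form the P-stalk, the arm of the large subunit that recruits elongation factors. Rplp1 had the second lowest day 7 difference of the family. It was at 8.34 and 7.71 in the controls, 7.86 and 7.52 at day 4, 7.18 and 7.37 at day 7, and 7.50 at day 10. Day 7 and day 10 lay below both controls, and the differences were -0.34 ± 0.29, -0.75 ± 0.29 and -0.52 ± 0.36 (SE; adjusted p = 0.931, 0.196 and 0.324).

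The partner Rplp2 was at 8.91 and 8.33 in the controls, 8.46 and 8.13 at day 4, 8.39 and 8.08 at day 7, and 8.17 at day 10. Its day 4 and day 7 groups overlapped the controls, with a day 7 difference of -0.39 ± 0.29 (SE; adjusted p = 0.479). Rplp0, the base of the stalk, lay wholly below control at day 7 and day 10, but by only -0.22 ± 0.21 (0.569) and -0.19 ± 0.25 (0.612).

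The 9 paralogues and look-alikes had a median difference of -0.19 at day 7 and -0.13 at day 10. Rps27l, a paralogue of Rps27 known as a p53 target, had the lowest day 7 difference of all 85 genes. It was at 6.18 and 6.17 in the controls, 5.96 and 5.80 at day 4, 4.997 and 5.69 at day 7, and 5.80 at day 10. All 5 knockout arrays lay below both controls, and the day 7 difference was -0.83 ± 0.28 (SE; adjusted p = 0.153), or -0.48 without day 7 array 1. The day 7 interval of Rps27l and that of its parent Rps27 overlapped, and their difference was not tested.

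Rpl7l1, a diverged relative of Rpl7, was at -0.22 and -0.38 in the controls, -0.28 and -0.72 at day 4, -1.21 and -0.89 at day 7, and -0.51 at day 10. Day 7 lay wholly below control, with a difference of -0.75 ± 0.26 (SE; adjusted p = 0.152). Its parent Rpl7 had -0.29 ± 0.22 (0.491).

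Rps4l, a copy of the X-linked Rps4x, was at 4.64 and 4.03 in the controls, 4.17 and 4.29 at day 4, 5.23 and 4.08 at day 7, and 3.73 at day 10. Only day 7 array 1 stood above both controls, and the day 7 difference of 0.32 ± 0.42 (SE; adjusted p = 0.698) became -0.25 without it. At day 10 Rps4l lay below both controls, by -0.61 ± 0.52 (0.426), and its parent Rps4x by -0.37 ± 0.28 (0.37).

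The other paralogues stayed within the same range at day 7. Rpl22l1 had 0.20 ± 0.34 (SE) against -0.27 ± 0.23 in its parent Rpl22, and Rpl36al had 0.19 ± 0.49 against -0.00 ± 0.36 in Rpl36a. Rpl32l had -0.19 ± 0.22 and Rpl32 -0.20 ± 0.21, and Rps23rg1, a retrogene, had -0.33 ± 0.21 against -0.15 ± 0.26 in Rps23. Rpl37rt had -0.36 ± 0.22, and Rps19bp1, which encodes a protein that binds Rps19 and is no part of the ribosome, -0.10 ± 0.27 against -0.46 ± 0.24 in Rps19. The adjusted p of these 11 genes was between 0.318 and 0.996. Copies of ribosomal protein genes can be nearly identical in sequence, and whether a probe also bound the parent's message was not tested, since probe sequences were not used here.

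The 3 members not tested were Rpl3l, Rpl10l and Rpl39l, paralogues known from muscle and testis, whose probes were well above background on 0 of 7 arrays. Their parents Rpl3, Rpl10 and Rpl39 were tested and had day 7 differences of -0.22 ± 0.29 (SE; adjusted p = 0.685), -0.16 ± 0.22 (0.715) and -0.43 ± 0.24 (0.345). A fit without the filter on dim probes called Rpl10l higher at day 10, by 2.02 ± 0.30 (0.00956), on a signal not well above background.

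**Figure D3:**
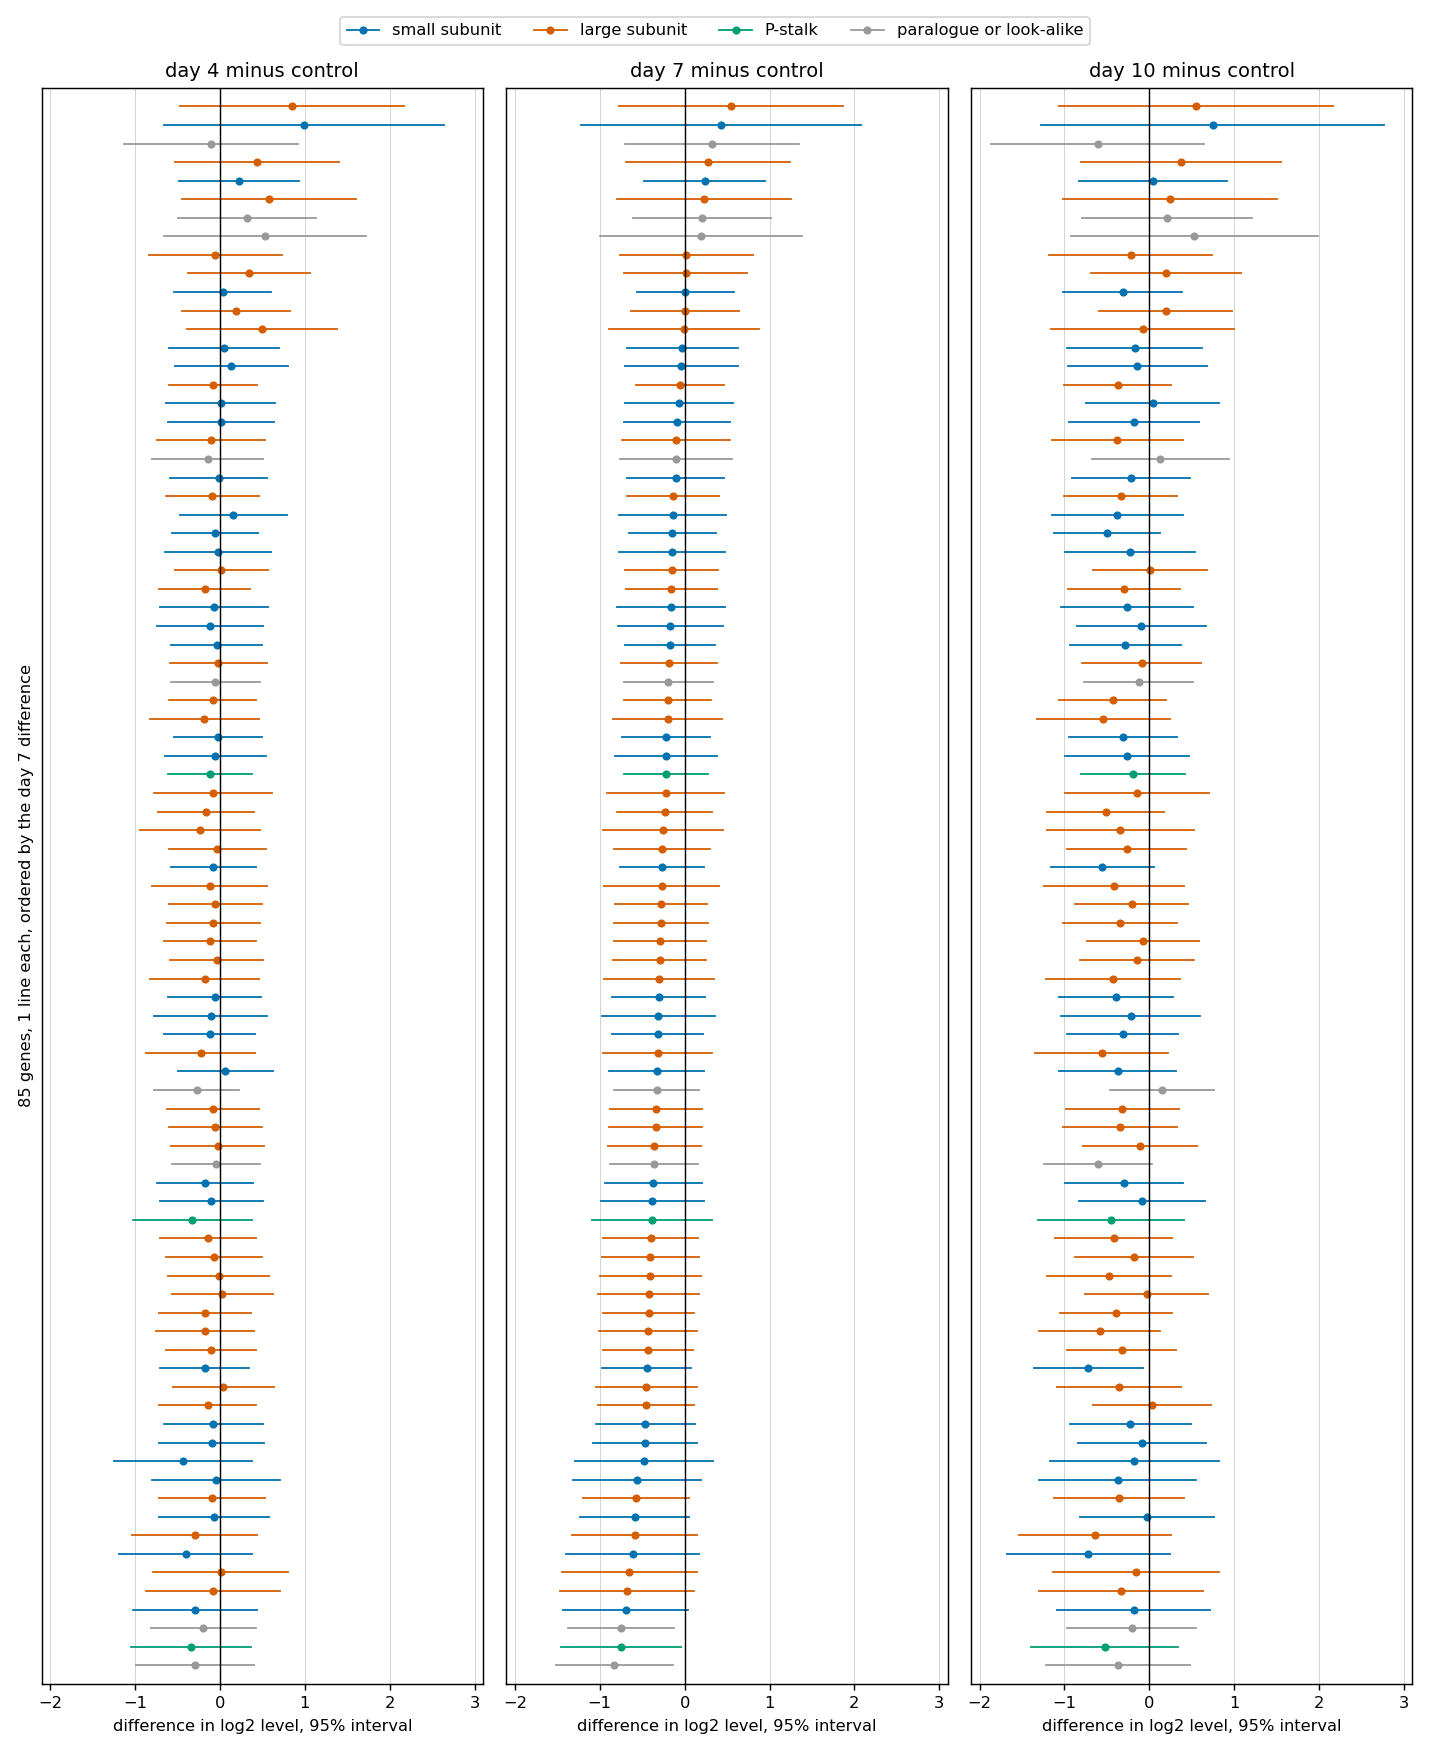
Difference in log2 level from control (points) with its 95% interval (lines) for each of the 85 genes at day 4, day 7 and day 10, coloured by class and ordered by the day 7 difference. At day 7 the points run from -0.83 in Rps27l to 0.54 in Rpl13a, and the intervals of only 3 genes leave out 0.

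Among the genes at the positive end of the range, Rps21, Rpl13a and Rpl7a read low on control array 1. Rps21, a small subunit protein, had the highest difference at day 4 and at day 10. It was at 2.66 and 4.77 in the controls, 4.85 and 4.56 at day 4, 3.73 and 4.55 at day 7, and 4.46 at day 10. Control array 1 stood apart from the other 6 arrays, and the differences were 0.99 ± 0.68, 0.43 ± 0.68 and 0.75 ± 0.83 (SE; adjusted p = 0.916, 0.753 and 0.547). Without that array the day 7 difference was -0.63.

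Rpl13a, a large subunit protein also known for silencing inflammatory messages when released, showed the same layout. It was at 4.85 and 6.58 in the controls, 6.69 and 6.43 at day 4, 6.13 and 6.39 at day 7, and 6.27 at day 10. Its day 7 difference was 0.54 ± 0.54 (SE; adjusted p = 0.597), or -0.32 without control array 1, while without control array 2 the day 10 difference was 1.42 ± 0.37 and was called (0.0455). The other probes of Rpl13a had day 7 differences of -0.02 and 0.48.

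Rpl7a, a large subunit protein, was at 5.85 and 6.88 in the controls, 6.77 and 6.83 at day 4, 6.33 and 6.94 at day 7, and 6.73 at day 10. The control values spanned most of the others, and the day 7 difference was 0.27 ± 0.40 (SE; adjusted p = 0.726), or -0.24 without control array 1. Rpl35, with 6.83 and 8.04 in the controls, and Rpl36al, with 3.90 and 5.40, were likewise low on control array 1 and high in their day 4 differences (0.58 ± 0.42 and 0.53 ± 0.49).

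In all, 14 of the 171 member probes tested (8.19%) read more than 0.8 lower on the log2 scale on control array 1 than on control array 2, and 0 read more than 0.8 higher. Over all probes tested the shares were 6.72% and 5.18%. At day 4, array 1 exceeded array 2 in 82 of the 85 genes, by a median of 0.34, against 55 of 85 in the controls (median 0.05) and 45 of 85 at day 7 (0.01). This count was not taken over all features. Their median day 4 difference from control was -0.07 without day 4 array 1 and -0.11 without day 4 array 2, against -0.23 and 0.09 in the members. With the 75th percentile scaling the family's median gap was thus 0.34 between the 2 day 4 arrays and -0.27 between day 7 and control. The first lies between single arrays and the second between means of 2, and mouse and array cannot be told apart.

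**Figure D4:**
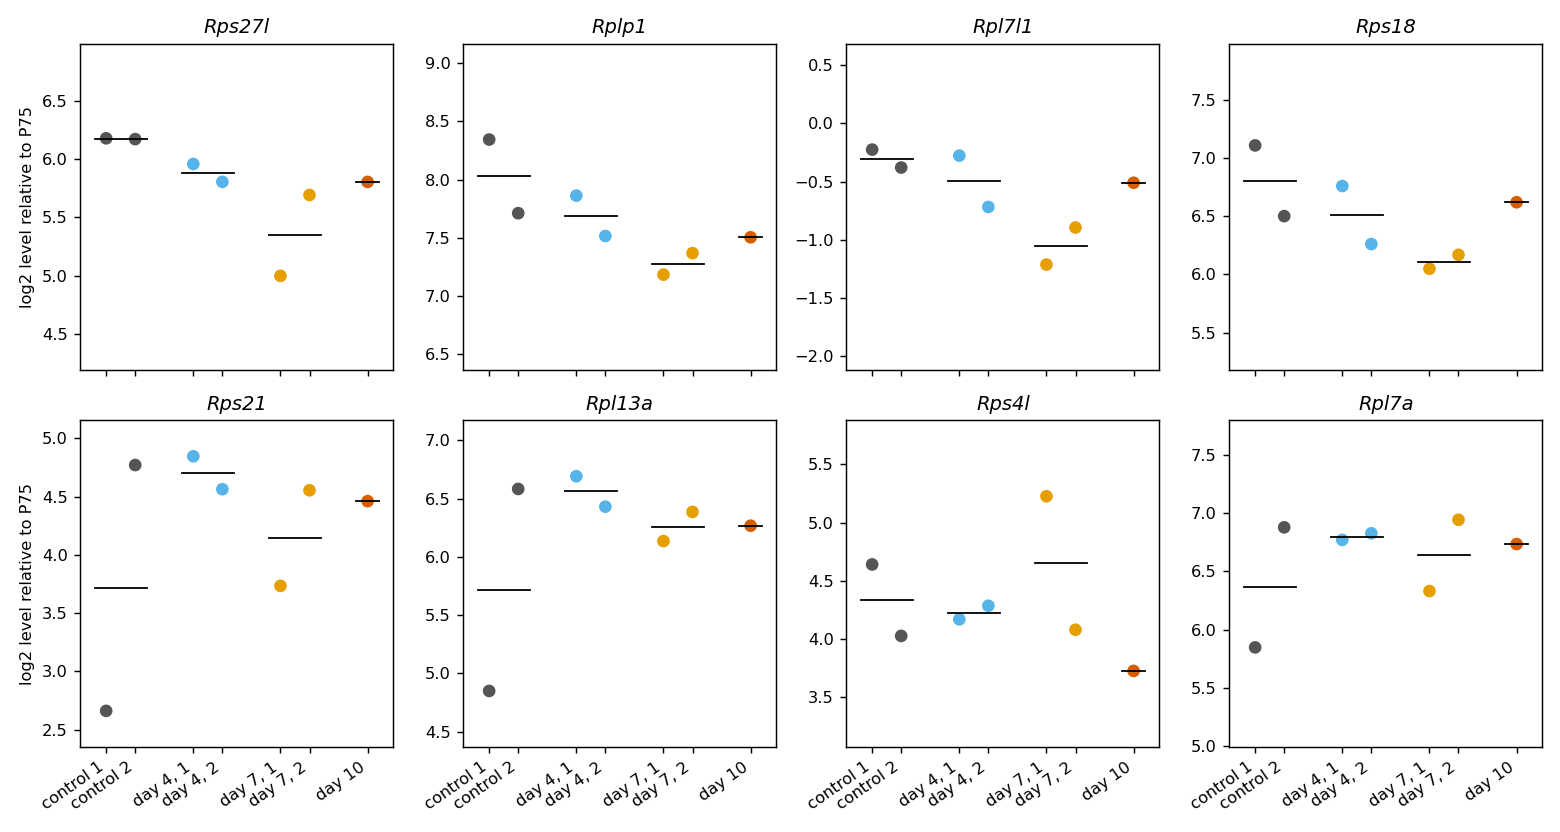
Log2 level relative to the array's 75th percentile on each of the 7 arrays (points) with group means (lines) for the 4 lowest (top) and 4 highest (bottom) day 7 differences among the 85 genes, each panel spanning 2.8 log2 units. Control array 1 reads low in Rps21, Rpl13a and Rpl7a, and day 7 array 1 reads high in Rps4l.

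Further called differences appeared when every probe was fitted as a feature of its own, an analysis added after the dimmer probes of some genes had been seen to differ. Of 171 member probes, 2 were called lower at day 7, where 4.57% of all 28956 probes were, and 2 at day 10, against 17.7%. From day 4 to day 7, 1 was called lower, against 1.55% of all probes, and from day 7 to day 10 also 1, against 10.7%. No member probe was called higher in any comparison. The calls fell on the dimmest probes of Rps24, Rpl22 and Rpl6.

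Rps24, which is needed to mature the 18S rRNA and is mutated in some patients with Diamond-Blackfan anaemia, is spliced into several messages, and its 3 probes cite 3 different RefSeq transcripts. The dimmest was at 2.35 and 2.27 in the controls, 1.76 and 1.69 at day 4, 0.18 and 0.54 at day 7, and -0.21 at day 10. No array of a knockout group reached the controls, and day 7 and day 10 lay below day 4 as well. The probe was 3.87-fold lower at day 7 (log2 difference -1.95 ± 0.22, SE; limma adjusted p = 0.00761), 5.75-fold lower at day 10 (-2.52 ± 0.27; 0.00163), and lower at day 7 than at day 4 by 1.36 ± 0.22 (0.0394).

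The brightest Rps24 probe was at 7.68 and 7.77 in the controls, 7.80 and 7.56 at day 4, 6.76 and 7.56 at day 7, and 7.35 at day 10. It differed at day 7 by -0.56 ± 0.31 (SE; adjusted p = 0.34) and at day 10 by -0.37 ± 0.38 (0.51), and the middle probe by -0.47 ± 0.23 (0.281) and -0.35 ± 0.28 (0.399). The difference between the probes was not tested, and the transcript that each binds was not checked against sequence. Without control array 1 the dim probe's day 7 difference was -1.91 with an adjusted p of 0.0504, which ended the call.

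Rpl22, a large subunit protein that the ribosome can lack when Rpl22l1 takes its place, has 2 probes that cite the same transcript. The dimmer was at 1.71 and 1.34 in the controls, 1.61 and 1.38 at day 4, -0.05 and 0.52 at day 7, and 0.05 at day 10. Day 7 and day 10 lay below all control and day 4 arrays. The probe was 2.45-fold lower at day 7 (-1.29 ± 0.28, SE; adjusted p = 0.0489) and 2.79-fold lower at day 10 (-1.48 ± 0.35; 0.0241).

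The brighter Rpl22 probe was at 6.88 and 6.82 in the controls, 7.04 and 6.61 at day 4, 6.59 and 6.58 at day 7, and 6.58 at day 10, a difference of -0.27 ± 0.23 (SE; adjusted p = 0.541) at day 7. The call on the dim probe was lost in 10 of 16 alternatives at day 7 and in 5 of 15 at day 10. Its day 7 difference was -1.11 without control array 1 (0.232) and -1.01 without day 7 array 1 (0.163). Leaving out control array 2 (0.0902) or either day 4 array (0.102) also ended the day 7 call, and leaving out control array 1 (0.0908) or either day 4 array (0.0501) ended the day 10 call.

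The dimmest of 4 probes of Rpl6, a large subunit protein, was at -1.35 and -1.45 in the controls, -1.32 and -1.31 at day 4, -0.17 and -0.83 at day 7, and -2.40 at day 10. It stood above control at day 7 (0.90 ± 0.27, SE; adjusted p = 0.117) and below it at day 10 (-0.999 ± 0.34; 0.0728), and the step from day 7 to day 10 was called (-1.90 ± 0.34; 0.0138). The brightest probe differed by 0.22 ± 0.31 in that step (0.694).

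Of the 52 genes with at least 2 probes tested, 14 had probes whose day 7 differences pointed in different directions. Rpl6, Rpl7a, Rpl13a, Rpl27, Rps2, Rps6 and Rps18 were among them. The day 7 values of the 14 spanned between 0.04 (Rpl27) and 1.47 (Rpl6) on the log2 scale. Rps6 ran from -0.59 to 0.24.

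**Figure D5:**
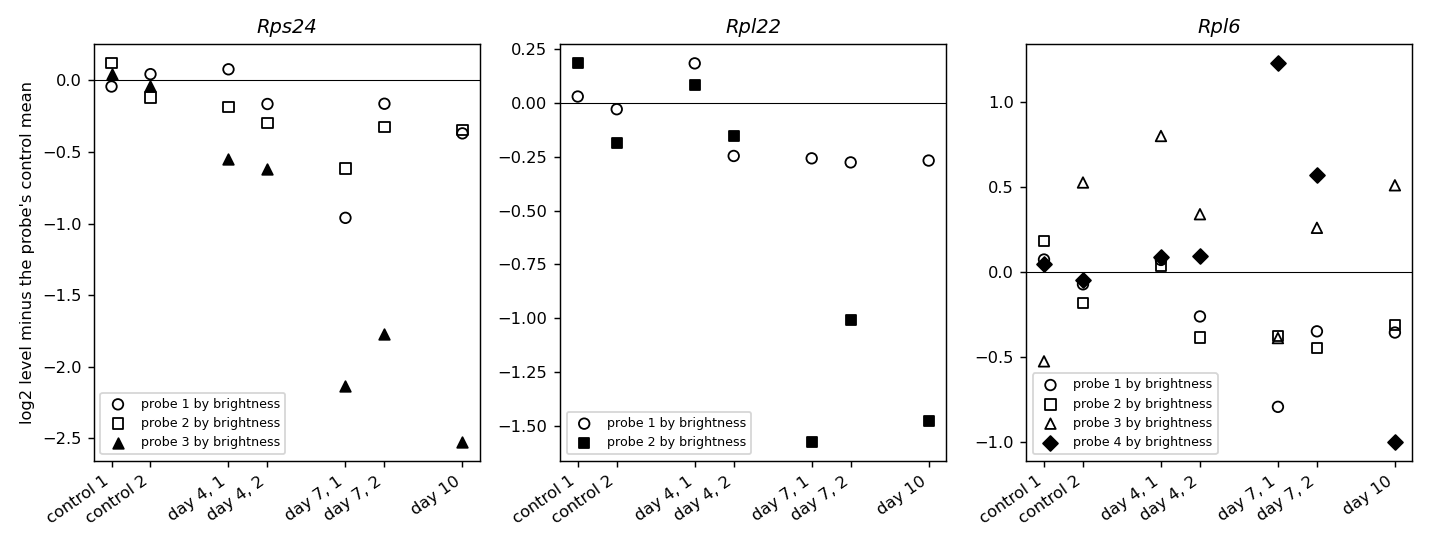
Log2 level of each probe of Rps24, Rpl22 and Rpl6 on the 7 arrays, as the difference from that probe's control mean, with the dimmest probe of each gene filled. The dimmest Rps24 probe falls to -2.52 at day 10 while the brightest stays at -0.37.

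Subunits of the cytosolic ribosome with other names gave the same picture of calls. Of the 3 that were tested, 0 were called in any comparison. Fau, the ubiquitin-like fusion that yields the small subunit protein eS30, was at 10.56 and 9.20 in the controls, 9.01 and 9.06 at day 4, 9.30 and 8.95 at day 7, and 8.27 at day 10. Control array 1 stood above all others, and the day 10 difference was -1.62 ± 0.55 (SE; adjusted p = 0.0745). The scaffold Rack1 differed by -0.31 ± 0.29 (SE; 0.47) at day 10.

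Other genes of translation were counted by list, beside the 7.46% of features called at day 7 and 28.1% at day 10. None of the lists had a called gene at day 4 or day 7, where 2 and 15 of 214 genes had an unadjusted p under 0.05 with limma. Over all 24763 features the counts at that limit were 1543 and 5607. Of 21 translation factors and other genes with TOP messages, 1 was called higher at day 10, and the median difference was 0.01. That gene was Nap1l1, a histone chaperone, at 1.62 and 1.96 in the controls and 4.72 at day 10 (2.94 ± 0.48, SE; adjusted p = 0.00665). Eef1b2 and Eif3f, an elongation and an initiation factor, had day 7 differences of -0.61 ± 0.27 (0.243) and -0.67 ± 0.25 (0.178).

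Of 42 ribosome biogenesis genes, 2 were called higher at day 10 and 0 lower, with a median of 0.72 and with 5 below 0. Rrp1b, a nucleolar processing factor, was at -1.29 and -1.45 in the controls and 0.02 at day 10 (1.39 ± 0.38, SE; adjusted p = 0.0386). Ddx21, a nucleolar helicase, was at -0.31 and 1.54 in the controls and 3.20 at day 10 (2.58 ± 0.82; 0.0631). Bop1, a large subunit assembly factor, had -0.48 ± 0.28 at day 7 (0.357) and 0.11 ± 0.34 at day 10 (0.83). Of 14 genes of RNA polymerase I, 0 were called higher and 1 lower, with a median of 0.50. That gene was Ubtf, which activates transcription of the rRNA genes, at 6.52 and 6.46 in the controls and 5.46 at day 10 (-1.03 ± 0.28; 0.0373), while the subunits Twistnb and Znrd1 differed by 0.17 ± 0.28 (0.679) and -0.44 ± 0.29 (0.307).

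The mitochondrial ribosomal proteins, which translate the messages of the mitochondrial genome, had 18 of 77 genes called lower at day 10 and 0 higher, with a median of -0.80. Of all 24763 features, 4368 were called lower and 2588 higher in that comparison, with a median of -0.15. Mrpl12 was at 6.18 and 5.93 in the controls, 5.36 and 5.35 at day 7 and 4.55 at day 10 (-1.50 ± 0.28, SE; adjusted p = 0.0108). Mrps15 differed by -1.15 ± 0.26 (0.0203) and Mrpl23 by -1.11 ± 0.33 (0.0504). At day 7 the list had 0 called and a median of -0.22. The difference between the mitochondrial and the cytosolic list was not tested.

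Of 18 regulators of ribosomal protein synthesis, 3 were called higher and 2 lower at day 10, where 28.1% of all features were called in either direction. Myc, the transcription factor that drives ribosome production, was at -0.85 and -0.11 in the controls, 0.82 and -0.24 at day 4, 0.86 and 0.90 at day 7, and 3.21 at day 10. It lay above both controls at day 7 (1.36 ± 0.42, SE; adjusted p = 0.12) and was called at day 10 (3.69 ± 0.51; 0.00378). Eif4ebp1, the mTOR-controlled brake on cap-dependent initiation, rose at day 10 by 2.59 ± 0.31 (0.00221), and the S6 kinase Rps6kb2 was lower by 1.16 ± 0.30 (0.0343).

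Free ribosomal proteins can stabilise p53 through Mdm2. Of 10 genes of the p53 checkpoint, 4 were called higher at day 10 and 0 lower, and a link to ribosomal proteins was not tested. Of all 24763 features, 2588 were called higher and 4368 lower. Pmaip1, a pro-apoptotic p53 target, rose by 2.20 ± 0.34 (SE; adjusted p = 0.00567) and Zmat3, another target, by 1.50 ± 0.27 (0.00944). Trp53 itself had a difference of -0.53 ± 0.30 (0.242). Of 29 proliferation genes, 1 was called higher and 1 lower, the latter Tk1, thymidine kinase, by 1.78 ± 0.39 (0.0195), while Cdc20 and Foxm1 had 1.63 ± 0.57 (0.0804) and 1.14 ± 0.41 (0.085). The summed level of the myeloid markers was higher, and that of the T cell markers lower, on the single day 10 array on which these lists rest. Not every marker followed its sum. On that array the myeloid marker Lyz2 lay below both controls, and the T cell marker Cd8b1 lay above both.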

How the data were processed

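Per the file headers, the authors obtained the intensities of design 028005 with the scanner software Feature Extraction (version 11.5.1.1), which subtracted background and removed spatial trends on each array but scaled nothing between arrays. The deposited series table repeats these intensities on a linear, uncentred scale. Single-spot probes were equal in both within 0.1% in 100% of cases, and the medians of its columns ran from 15.2 to 30.5. The files name probes by accession and not by gene, so symbols came through RefSeq accessions (27509 of 55681 probes matched), and members were chosen on those symbols. No gene coordinates are given, because that table's assembly (GRCm38.p6) is not the files' build (mm9); only the start windows carry coordinates.

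The level is the log2 of the processed signal, averaged over a probe's spots without outliers, minus the array's 75th percentile. Features were genes by their brightest probe or unnamed probes that 2 or more of the 7 arrays showed well above background (24763 features, of which 13805 had a symbol). limma 3.58.1 in R 4.3.3 fitted all 7 arrays with a mean for each group; tests were 2-sided, and p-values were adjusted by Benjamini-Hochberg across the features, with calls at 0.05. Day 10, with 1 array, took its spread from the other groups (3 residual and 3.16 prior degrees of freedom). The number of arrays limits the precision. The fit was tested on simulated data with independent noise in each feature, which hold no effect of mouse, array or slide row. Alternatives covered scaling, background correction (normexp on the median signal with an offset of 50, since the mean signal that had been planned is not in the files), the value table, the filter, the probe, the groups fitted, the replicate block and each array left out. The fit of single probes and the limit of 0.8 between replicates were chosen after seeing the data.

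Named members were every called one, the 4 highest and 4 lowest differences at each day, the paralogues and their parents, the stalk genes and Rpsa, genes whose probes disagreed in sign, and those not tested. From each other list up to 3 genes with the smallest p at day 7 were named. Rps6, Rps27a, Rpl5, Rpl11, Rack1 and, among probes, Rps24, Rpl22 and Rpl6 were added for their roles or after their values were seen. Some genes that meet the rule are not reported here. The members, the lists and the comparisons were chosen with earlier results of these data known.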

Additional observations from a re-analysis of the deposited data

How the results depend on the processing

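Over 17 or 18 alternatives a comparison, the count of called ribosomal protein genes stayed at 0 in every setting at day 4, day 7 and day 7 minus day 4, and at 0 or 1 at day 10. At day 10 it was 1 without the filter on dim probes (Rpl10l, 2.02), 1 with the mean of a gene's probes (Rps24, -1.08), 1 with the second brightest probe (Rpl22, -1.48) and 0 to 1 with an array left out (Rpl13a, without control array 2); day 10 minus day 7 gave 1 without the filter (Rpl10l, 1.80). The members' median difference moved to -0.004 at day 7, 0.244 at day 10 and 0.273 from day 7 to day 10 with quantile normalization, and to -0.032 at day 10 with the 75th percentile of detected probes. The median over all features at day 10 itself shifted from -0.15 to 0.08 with detected probes and to -0.33 with median scaling; relative to it the members were at -0.11 under these 3 scalings and at 0.29 with quantile normalization. Leaving out an array gave medians of -0.23 to 0.092 at day 4, -0.327 to -0.203 at day 7, -0.284 to -0.237 at day 10 and -0.377 to -0.041 from day 4 to day 7. With normexp the day 7 median of the members was -0.336, against -0.063 over all features. In that setting 0 members were called, while 5.71% of all features were. An unadjusted p under 0.05 with limma was found for 20 members. In the main fit it was found for 3 members and for 5607 of the 24763 features. With normexp the count over all features at that limit was not taken. The lowest limma adjusted p of a member at day 7 was 0.0668 with normexp and 0.0517 with the second brightest probe. No named gene was called at day 7 under any alternative, and some turned sign. Rpl7a was at -0.079 with the mean of probes, -0.053 with the second brightest and -0.241 to 0.790 with an array left out; Rps18 was at 0.054 with the second brightest; leaving out an array gave -0.627 to 1.483 for Rps21, -0.322 to 1.411 for Rpl13a and -0.254 to 0.892 for Rps4l. The cause of these moves was not tested, beyond the arrays left out. The dim Rps24 probe kept its call in 15 of 16 alternatives at day 7 and 15 of 15 at day 10, the dim Rpl22 probe in 6 of 16 and 10 of 15. The labels state no pairing by replicate number, and with 2 numbers none was taken from the data. Deviations of same-numbered arrays correlated at 0.00859 (control and day 4), 0.0855 (control and day 7) and 0.253 (day 4 and day 7) over all probes, and at 0.349, 0.301 and 0.26 over the 171 member probes. With the replicate block, 0 members were called in any comparison, the dim Rpl22 probe lost its day 7 call (limma adjusted p = 0.0678), and the medians were -0.270 at day 7 and -0.348 at day 10. With groups of 2, 2, 2 and 1 the typical standard error of a member was 0.25 at day 7 and 0.31 at day 10, so differences of the size of the medians could not be told from 0 gene by gene.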
